A study of Mus musculus with 2 samples.

Results

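The axon guidance genes of the mouse were described through their open chromatin in the adult cerebellum. Members were all protein-coding genes of the annotation whose symbol begins with Sema, Plxn, Epha, Ephb, Efna, Efnb, Slit with a digit, Robo, Ntn or Unc5, together with Nrp1, Nrp2 and Dcc. The rule used gene names and no measured value, and it took 73 of 21938 coding genes. These were 37 ligand genes, 35 receptor genes and Unc50, a membrane protein of the secretory pathway. Unc50 shares only the first letters of its symbol with the Unc5 receptors and was kept apart from ligands and receptors. Unc5cl was counted among the receptors by its symbol. The measurements came from DNase-seq, in which DNase I cuts the accessible DNA of nuclei and the cut ends are sequenced. There were 2 libraries, replicate 1 and replicate 2, both of cerebellum tissue. The mice were B6CASTF1/J males, 8 to 10 months old, a first-generation cross of B6 with CAST, and the labels name no treatment or mutation. A pool of 2 biosamples went into each library, and the alleles of the parents were not separated. Whether an animal gave tissue to both pools is not stated, and the spread between replicates may then be partly technical.

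Growing axons read cues that attract or repel them, and the same proteins later act in the migration of neurons and in the making and pruning of synapses. Semaphorins signal through plexins, with neuropilins as co-receptors for the secreted class, while ephrins signal through Eph receptor tyrosine kinases, Slit proteins through Robo receptors, and netrins through Dcc and the Unc5 receptors. In the cerebellum these systems are known for guiding the migration of granule cell precursors and the wiring of their axons, the parallel fibres. DNase-seq sees neither RNA nor protein, so what follows describes the chromatin at the genes.

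The intervals below were picked as examples: 4 start peaks, among them the strongest of all members at Unc5b, and 3 strong peaks far from any start. They are not the strongest in order. The start peaks of Sema6a, Sema4c and Unc5c had higher mean values than that of Sema4d. Efna2, Sema3b and Ntng1 had stronger peaks away from starts than Plxna2 and Sema6d. Each is written 5′ to 3′ on the strand of its gene from the GRCm38 (mm10) reference, and capitals mark bases that lie inside a footprint (a short stretch protected from DNase I) called by the authors in both libraries. Peaks at starts were cut off at the base before the start. The first 4 lie just upstream of a transcript start, of an internal start in an intron for Unc5b and Sema4d and of the 5′ start for Ephb1 and Epha7. The other 3 lie away from all starts, inside an intron of Ntng2, between genes upstream of Plxna2, and inside an intron of Sema6d. The Ephb1 interval overlaps an exon of Gm26846, a noncoding RNA.
Unc5b, chr10:60820642-60820880, minus strand: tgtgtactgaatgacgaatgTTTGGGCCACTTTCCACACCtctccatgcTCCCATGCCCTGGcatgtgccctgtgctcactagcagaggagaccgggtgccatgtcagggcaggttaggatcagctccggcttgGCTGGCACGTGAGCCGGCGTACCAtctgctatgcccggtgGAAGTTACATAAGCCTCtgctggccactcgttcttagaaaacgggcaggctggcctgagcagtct
Ephb1, chr9:102354694-102354940, minus strand: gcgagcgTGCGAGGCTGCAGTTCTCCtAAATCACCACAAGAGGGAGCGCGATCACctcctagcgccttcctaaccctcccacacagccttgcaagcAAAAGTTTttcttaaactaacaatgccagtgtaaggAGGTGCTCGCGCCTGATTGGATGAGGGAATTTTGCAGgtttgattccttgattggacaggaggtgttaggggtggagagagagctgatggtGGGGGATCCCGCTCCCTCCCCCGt
Epha7, chr4:28812881-28813130, plus strand: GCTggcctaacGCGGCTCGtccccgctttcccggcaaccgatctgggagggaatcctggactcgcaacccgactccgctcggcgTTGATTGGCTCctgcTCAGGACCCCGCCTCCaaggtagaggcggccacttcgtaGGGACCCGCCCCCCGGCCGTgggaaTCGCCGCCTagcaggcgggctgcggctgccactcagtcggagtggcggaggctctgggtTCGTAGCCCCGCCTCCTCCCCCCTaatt
Sema4d, chr13:51777161-51777380, minus strand: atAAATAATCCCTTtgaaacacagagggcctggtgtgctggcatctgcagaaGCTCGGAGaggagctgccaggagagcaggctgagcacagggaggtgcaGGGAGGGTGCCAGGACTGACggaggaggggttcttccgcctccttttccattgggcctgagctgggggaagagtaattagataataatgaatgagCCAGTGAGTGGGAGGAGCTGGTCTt
Ntng2, chr2:29217921-29218140, minus strand: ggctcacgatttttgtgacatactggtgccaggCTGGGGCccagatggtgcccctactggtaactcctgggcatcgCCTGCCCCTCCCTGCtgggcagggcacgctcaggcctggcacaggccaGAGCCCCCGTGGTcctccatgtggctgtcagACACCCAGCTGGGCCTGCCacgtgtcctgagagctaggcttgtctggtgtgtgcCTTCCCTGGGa
Plxna2, chr1:194578361-194578580, plus strand: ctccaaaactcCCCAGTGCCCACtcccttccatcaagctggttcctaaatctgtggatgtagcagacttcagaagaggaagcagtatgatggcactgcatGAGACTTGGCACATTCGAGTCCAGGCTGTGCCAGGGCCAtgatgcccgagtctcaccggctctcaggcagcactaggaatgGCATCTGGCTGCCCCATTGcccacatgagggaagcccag
Sema6d, chr2:124641241-124641460, plus strand: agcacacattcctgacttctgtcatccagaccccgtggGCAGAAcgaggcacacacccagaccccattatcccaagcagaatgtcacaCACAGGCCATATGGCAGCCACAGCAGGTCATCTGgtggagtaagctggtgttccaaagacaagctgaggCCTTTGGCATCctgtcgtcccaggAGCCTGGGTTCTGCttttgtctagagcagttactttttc
Footprints of both libraries covered 74 of the 239 bases of the Unc5b interval, 115 of 247 at Ephb1, 91 of 250 at Epha7 and 64 of 220 at Sema4d. In the distal intervals they covered 64 of 220 bases at Ntng2, 70 of 220 at Plxna2 and 65 of 220 at Sema6d. The letters of the SP/KLF motif, GGGCGG on either strand, lay inside a footprint at Epha7. The E-box letters CAGATG and the nuclear factor I letters TTGGCA, on either strand, both lay inside footprints at Plxna2 and at Sema6d. At Unc5b, Sema4d and Ntng2 CAGATG stood in the interval but not wholly inside a footprint. How often these letters lie inside footprints of distal peaks in general was not counted.

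The stricter of the 2 peak lists per library held 61776 peaks in replicate 1 and 71141 in replicate 2. Of these 76.0% and 66.1% overlapped a peak of the other library. Signal is the authors' coverage value of a peak, on a scale that the sources do not give, and it ran higher in replicate 1: the median log2 ratio of replicate 1 to replicate 2 over shared peaks was 0.41. Granule cell markers fixed for the check of the tissue had a peak at a start in both libraries for 10 of 10 genes and Purkinje cell markers for 5 of 7. The same count was 2 of 6 for interneurons and unipolar brush cells, 3 of 6 for Bergmann glia and astrocytes, 1 of 7 for oligodendrocytes, 0 of 5 for microglia and 0 of 6 for vascular cells. One muscle gene, Ckm, of 4 genes of other organs also had such a peak, at 2.23 and 1.35. In whole tissue, fewer cells of a type and less open chromatin per cell cannot be told apart.

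Most guidance genes were open at a start, and their start peaks were weak. A gene was counted as open where a peak overlapped the 1 kb either side of any of its annotated transcript starts, and the strongest of these peaks gave the gene's signal. In replicate 1, 55 of the 73 members were open, against 58.4% of all coding genes, and in replicate 2 also 55, against 57.2%. Both libraries agreed on 52 members (71.2%), against 55.9% of coding genes, and on 15 members with no such peak, against 40.3%. Among open genes the median signal was 2.71 for members and 4.83 for all coding genes in replicate 1, and 1.57 for members and 3.38 for all coding genes in replicate 2. Quartiles for members were 1.10 and 4.16 in replicate 1 and 0.781 and 3.20 in replicate 2. For all coding genes they were 2.58 and 7.84 in replicate 1 and 1.80 and 5.70 in replicate 2. Only Epha7, Ephb1, Sema4c, Sema6a, Unc5b, Unc5c and Unc50 lay above the median of open coding genes in both libraries. Counting only peaks above the median signal of their library left 35 members open in both (47.9%), against 49.7% of coding genes, so the higher share of members was not seen among the stronger peaks.

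**Figure D1:**
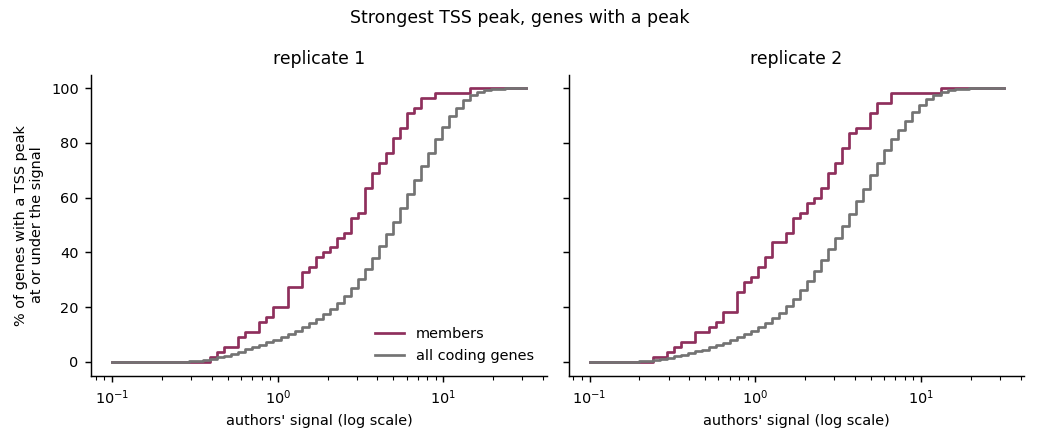
Signal of the strongest start peak (x axis, authors' signal, log scale) against the percent of genes with such a peak that lie at or under it (y axis), for members and for all coding genes in replicate 1 (left) and replicate 2 (right). The members' line runs above and to the left of the other in both libraries, with medians of 2.71 for members and 4.83 for coding genes in replicate 1.

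The libraries ranked the members alike. Over the 52 members open in both, Pearson's r of the log2 signal was 0.959 and Spearman's rho 0.953, given as a description over genes that share 2 libraries. Replicate 1 was the higher for 46 of them, and their median log2 ratio of replicate 1 to replicate 2 was 0.61 (SD 0.40 over 52 genes). All 12257 coding genes open in both had a median of 0.55. Sema4d, Sema4f, Plxnb2, Ephb1, Sema5b and, by a small margin, Ntn4 were higher in replicate 2, against that general shift. At Sema4f and Sema5b the strongest start peaks of the 2 libraries did not overlap, so the values there come from different peaks. The same held for Efnb2, Ntng1, Plxnc1, Plxnd1, Robo2 and Sema6d. Another 3 members had a start peak in replicate 1 alone and 3 in replicate 2 alone, and these are given with their families.

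In the stricter list, ligands and receptors were open about equally often. A start peak stood in both libraries at 26 of 37 ligand genes (70.3%) and at 25 of 35 receptor genes (71.4%), and 9 ligands and 6 receptors had none in either. The median signal of open genes was 2.86 for ligands and 2.18 for receptors in replicate 1, and 1.78 for ligands and 1.22 for receptors in replicate 2. That order was the same in both libraries, and the ranges of the 2 groups overlapped over most of their length: ligands ran from 0.378 to 6.99 and receptors from 0.443 to 14.1 in replicate 1. The longer peak list put 60 members (82.2%) in both libraries, against 60.5% of coding genes, and 6 in neither, against 34.9%. These counts held 28 ligands (75.7%) and 31 receptors (88.6%) open in both. With only peaks above the median signal of their library, 19 ligands (51.4%) and 15 receptors (42.9%) were open in both, so the order of the shares was opposite in these settings.

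**Figure D2:**
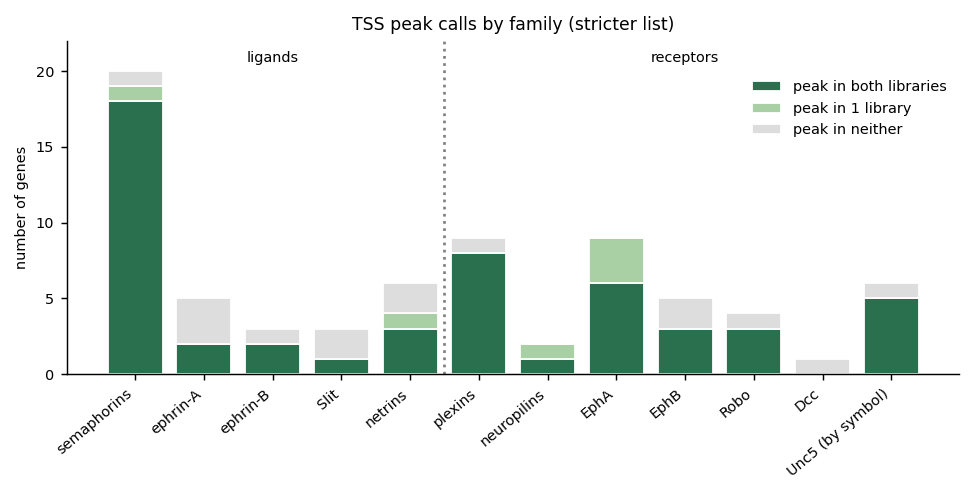
Number of genes (y axis) in each family (x axis, ligand families left of the dotted line, receptor families right of it) with a start peak in both libraries, in 1 library or in neither. Semaphorins (18 of 20) and plexins (8 of 9) were mostly open, while ephrin-A genes (2 of 5) and Slit genes (1 of 3) were not. Unc50 stands in the Unc5 bar by its symbol.

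Among the ligands, semaphorins were the most widely open family, with a start peak in both libraries at 18 of 20 genes. Sema6a, a transmembrane ligand of plexins A2 and A4, had a signal of 6.99 in replicate 1 and 5.39 in replicate 2. The class 4 gene Sema4c, a ligand of plexin B2, had 6.42 and 3.52, and Sema4d, a ligand of plexin B1, had 4.57 and 5.0. Sema6a and Sema4c were thus higher in replicate 1, and Sema4d in replicate 2. Every transmembrane gene of class 6 was open, with 4.81 and 3.49 at Sema6c, 2.51 and 1.44 at Sema6b, and 2.19 and 1.58 at Sema6d, where the libraries had their strongest peak at different starts. Class 5, transmembrane proteins with thrombospondin repeats, was also open at both genes: Sema5a had 5.51 and 2.59, and Sema5b had 0.707 and 1.17. Sema7a, which is anchored in the membrane by a lipid and binds plexin C1, had 4.10 and 2.29.

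The secreted class 3 semaphorins, the ligands of the neuropilins, were open at 6 of 7 genes but spread over a wide range. Sema3b led the class with 5.96 and 2.98, followed by Sema3f with 3.26 and 1.78 and Sema3g with 2.38 and 2.00. The peak at Sema3g also lies within 1 kb of a start of its neighbour Nisch, and the 2 starts cannot be told apart there. Sema3d (0.750 and 0.411), Sema3e (0.614 and 0.266) and Sema3a (0.378 and 0.234) lay near the bottom of all open members, and Sema3c had no start peak. Class 4 was open at 5 of 6 genes in both libraries. Its sixth, Sema4g, had a peak of 0.771 in replicate 2 alone in the stricter list, and in the longer list one of 1.31 in replicate 1 and 0.771 in replicate 2.

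Ephrins were open at 4 of 8 genes. Efna1, which is attached by a lipid anchor as all A ephrins are, had 3.46 in replicate 1 and 2.55 in replicate 2. Efnb1, a transmembrane ephrin on chromosome X, had 3.35 and 2.53, and its relative Efnb2 had 2.86 and 1.49. Efna5 was far lower at 0.578 and 0.322. Efna2, Efna3, Efna4 and Efnb3 had no start peak, and Efna4 and Efnb3 had none in the longer list either. Of the Slit ligands only Slit3 had a start peak, at 1.06 and 0.620, with none at Slit1 and Slit2, and Slit2 had none in the longer list.

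Netrins were split. Ntn4, a netrin that binds laminin, had 3.96 and 3.99, nearly the same in the 2 libraries although replicate 1 generally ran higher. That peak reached into the 1 kb around a start but was centred 1091 bp from it in replicate 1 and 1161 bp in replicate 2. Ntn3 had 1.91 and 1.20. Ntn1, the classic attractant for commissural axons, and Ntn5 had no start peak in the stricter list. The netrin-G genes encode lipid-anchored synaptic adhesion proteins that do not bind Dcc or Unc5 receptors. Ntng1 had 0.942 and 0.620. Ntng2 had 0.421 in replicate 1, or 1.20 in the longer list, and no start peak in replicate 2 in either list.

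On the receptor side, plexins were open at 8 of 9 genes. Plxna2, a receptor of Sema6a, had the highest mean, with 5.35 in replicate 1 and 3.19 in replicate 2. Plxnb2, which mouse granule cell precursors need for normal cerebellar layering, had 3.39 and 3.55, and Plxnd1, the receptor of Sema3e, had 3.63 and 3.21. Plxna2 was the highest of the 3 in replicate 1 and the lowest in replicate 2. The values of Plxnd1 come from different start groups, and at the 5′ group alone it had 3.63 and 2.04. Plxna4 had 2.71 and 1.54, Plxna1 2.18 and 1.57, Plxna3 1.64 and 0.847, Plxnb1 1.31 and 0.714, and Plxnc1 1.07 and 0.790. Plxnb3 had no start peak in either list. Of the neuropilins, Nrp2 had 1.29 and 0.759, and Nrp1 had 0.443 in replicate 1 alone, with 0.297 in replicate 2 in the longer list.

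Every EphA gene had a start peak in at least 1 library, and 6 of 9 in both. Epha7 had 8.66 in replicate 1 and 6.09 in replicate 2, second of all members by its mean, with Ephb1 above it in replicate 2. Epha3 had 3.98 and 3.03, and Epha2 had 1.32 and 0.866. Below them came Epha4 (1.10 and 0.721), Epha6 (0.871 and 0.544) and Epha5 (0.799 and 0.405), so Epha7 stood well above the rest of its family in both libraries. Epha8 had 1.64 in replicate 1 alone, Epha1 0.980 in replicate 2 alone and Epha10, whose kinase domain is thought to be inactive, 1.01 in replicate 2 alone. All 3 had a start peak in both libraries in the longer list.

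EphB receptors were open at 3 of 5 genes, and of these Ephb1 alone lay above the median of open coding genes in both libraries. Ephb1 had 5.53 in replicate 1 and 6.55 in replicate 2, Ephb3 4.74 and 3.27, and Ephb2 2.74 and 1.97. Only Ephb1 of the 3 was higher in replicate 2. The Ephb1 peak also overlaps an exon of the noncoding RNA Gm26846, and whether it belongs to Ephb1 alone was not tested. Ephb4, known best from vessels, and Ephb6, which lacks kinase activity, had no start peak in the stricter list.

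Robo receptors were open at 3 of 4 genes. Robo3, which controls midline crossing of commissural axons, had 3.09 and 1.22, Robo1 had 1.5 and 1.13, and Robo2 had 0.564 and 0.329. Robo4, an endothelial receptor, had no start peak in either list. Dcc, the attractive netrin receptor, had none in the stricter list, and in the longer list its strongest start peaks had 0.371 and 0.253, beside 0.378 and 0.234 for the weakest open member of the stricter list.

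All 4 repulsive netrin receptors were open, in contrast to Dcc and Ntn1. Unc5b had the strongest start peak of all 73 members, with 14.1 in replicate 1 and 13.1 in replicate 2. Unc5c, whose loss in the mouse gives the rostral cerebellar malformation, had 5.25 and 4.67, Unc5a 3.22 and 2.21, and Unc5d 1.10 and 0.493. Unc5b stood above 98.7% of all coding genes by its mean signal, and even its value in replicate 2 was above every other member in either library. Unc5cl, a relative of the Unc5 proteins counted as a receptor by its symbol, had no start peak in either list. Without it 25 of 34 receptors (73.5%) were open in both libraries, against 71.4% with it. Unc50 had 7.23 and 4.86, but the centre of that peak lies 3 bp from a start of its neighbour Coa5, and the 2 genes cannot be told apart there.

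**Figure D3:**
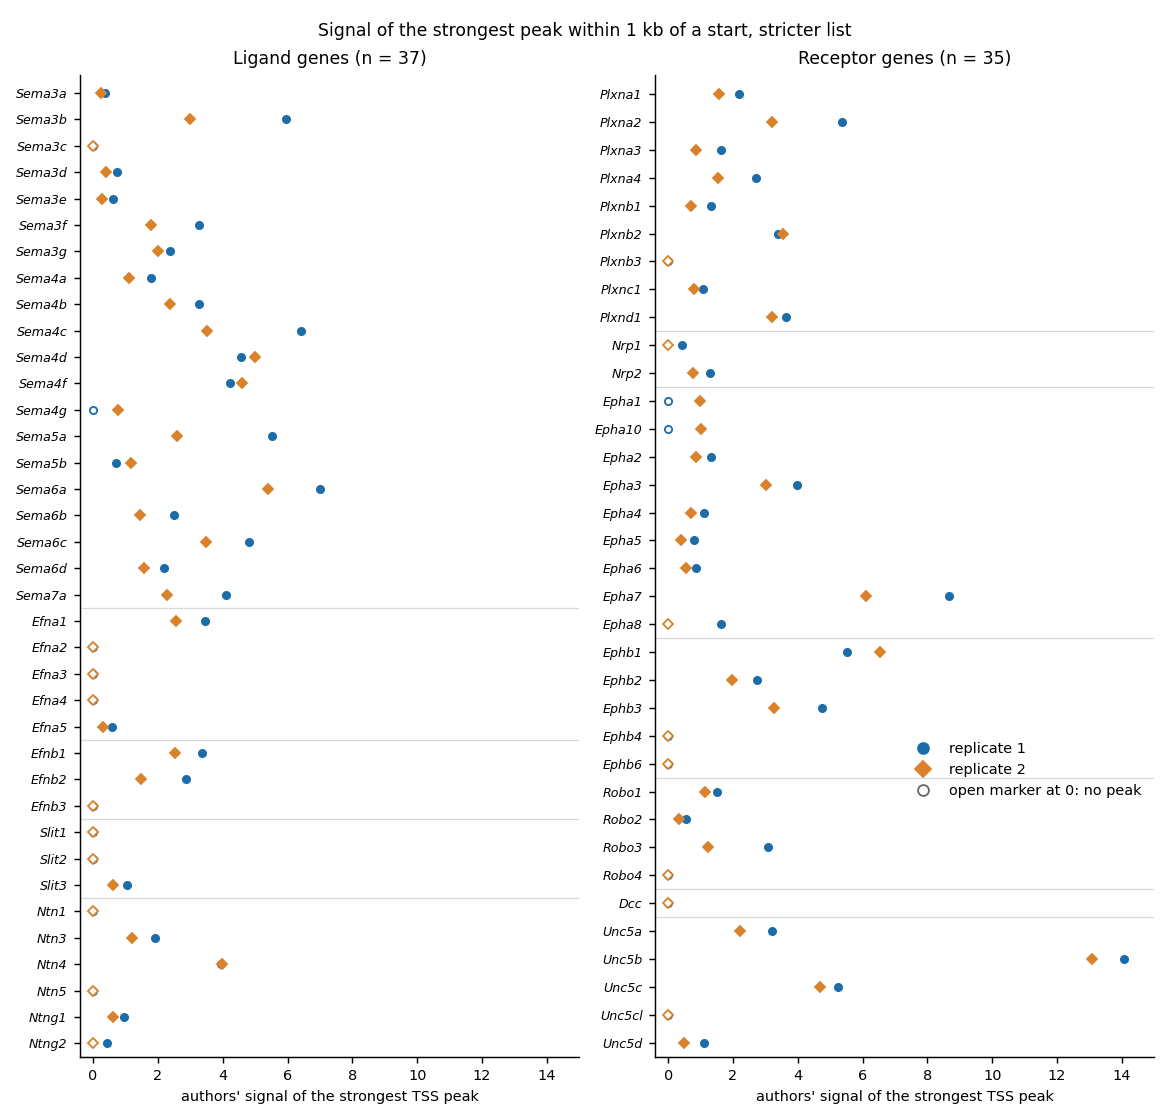
Signal of the strongest start peak (x axis, authors' signal) for the 37 ligand genes (left) and the 35 receptor genes (right), with a circle for replicate 1 and a diamond for replicate 2. Open markers at 0 stand for no peak in the stricter list, and grey lines part the families. Unc5b at 14.1 and 13.1 lies furthest right, followed by Epha7 at 8.66 in replicate 1 and Ephb1 at 6.55 in replicate 2.

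Many members have more than 1 start, and the strongest peak was not always at the 5′ one. Starts no more than 1 kb apart were joined into groups, which gave 216 groups and more than 1 in 56 members. Of the 44 members open in both libraries that have several groups, 31 had their strongest peak at the 5′ group in both libraries and 12 at a later group in both. Among those 12, Sema6d had it at a different later group in each library. The remaining gene, Plxnd1, had it at the 5′ group in replicate 1 and at the fourth in replicate 2. Of 143 later groups 21 had a peak in both libraries. These counts were not made over all coding genes, so they do not show whether members differ in this. Members also have more starts, with a median of 5 against 3 for coding genes.

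Unc5b is the clearest of these. Its 5′ group had 5.88 in replicate 1 and 3.07 in replicate 2, while the start of a noncoding transcript 10.9 kb into the gene had 14.1 and 13.1. That internal interval is the one shown for Unc5b among the sequences. Sema4d likewise had 2.56 and 1.62 at its 5′ group and 4.57 and 5.0 at a noncoding start 16.6 kb into the gene, which again is the interval shown. At both genes the internal start was the stronger in both libraries. Plxnb2 had 3.03 and 2.04 at the 5′ group and 3.39 and 3.55 at the next one, 10.1 kb in. The difference was thus small in replicate 1 and larger in replicate 2.

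Robo1, Robo3, Sema3a, Sema3b and Sema4a had no peak at the 5′ group in either library and one at a later group in both. Robo1 spans 737.8 kb and has 7 groups, and the only peaks lay at the third, 355 kb in, a start of coding transcripts at chr16:72663149-72663204, with 1.5 and 1.13. Robo3 was open at its second group, also of a coding transcript, whereas Sema3b and Sema4a were open at a late group of noncoding transcripts alone. Taking only the 5′ end of each gene left 46 members open in both (63.0%), against 51.4% of coding genes.

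**Figure D4:**
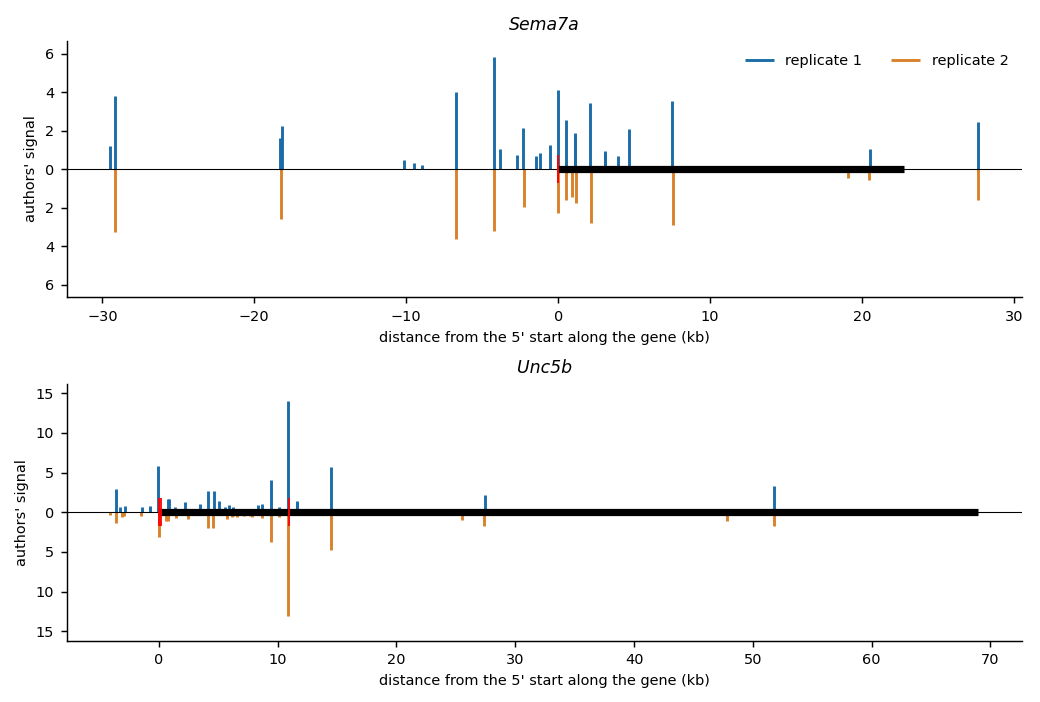
Peaks of the stricter list around Sema7a (top) and Unc5b (bottom), placed by distance from the 5′ start along the gene (x axis, kb) and drawn as lines whose length is the authors' signal (y axis), upward for replicate 1 and downward for replicate 2. The black bar is the gene and red marks are transcript starts. At Unc5b the tallest line in each library stands at the internal start, and at Sema7a the peaks upstream of the gene are as tall as the one at the start.

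Peaks away from starts were more numerous around members than around coding genes in general. A distal peak was centred more than 1 kb from every annotated start of any gene and within 50 kb of a start of the member. A peak centred beyond 1 kb that still overlapped the 1 kb around a start counted both as start peak and as distal. This held for 11 peaks of 9 members in replicate 1 and 7 peaks of 7 members in replicate 2. The strongest start peaks of Ntn4 and Sema5a were among them in both libraries. In replicate 1 the mean was 4.71 per member and 2.99 per coding gene (medians 4 and 1), and in replicate 2 it was 4.97 per member and 3.22 per coding gene (medians 4 and 2). Over the 2 libraries the members' mean was 4.84 ± 0.184 (SD, n = 2). No distal peak was found at 9 members in replicate 1 and 7 in replicate 2, while 67.5% and 72.6% of coding genes had at least 1. At least 1 in both libraries was found at 63 members, against 64.8% of coding genes, and at least 10 in both at 8 members, against 4.20%. Members are longer than coding genes, with a median of 56.6 kb against 17.4 kb, and have more starts, with a median of 5 against 3. The part of length and starts in the count was not tested beyond the setting with 1 start per gene, in which the mean was 3.66 per member and 2.56 per coding gene.

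In all, 331 distinct distal peaks lay around members in replicate 1 and 350 in replicate 2. Of these 69.2% and 63.4% overlapped a peak of the other library, against 72.5% and 58.2% of all distal peaks. Their median signal was 1.33 and 0.885, against 1.11 and 0.790 for all distal peaks. Ligands and receptors had like numbers, 4.95 and 4.54 per gene in replicate 1 and 4.78 and 5.23 in replicate 2, and their order was opposite in the 2 libraries. Where the peaks lay was not alike: inside the gene's own span lay 33.9% of those of ligands and 58.5% of those of receptors in replicate 1, and 47.5% and 59.0% in replicate 2. The gene's own start was the nearest coding start for 53.6% of those of ligands and 79.2% of those of receptors in replicate 1, and 64.4% and 81.4% in replicate 2. Receptor genes were the longer, with a median of 39.7 kb for ligands and 84.8 kb for receptors. In the shares by place, a peak near several members was counted for each of them. The same shares were not counted over all coding genes.

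The 8 members with 10 or more distal peaks in both libraries were 2 ligands, Sema6a and Sema7a, and 6 receptors, Ephb1, Ephb2, Plxna2, Plxnb2, Plxnc1 and Unc5b. Unc5b had the highest mean of the 2 libraries, with 19 in replicate 1, fewer than Sema7a, and 23 in replicate 2, of which 16 in each overlapped a peak of the other library. Ephb2 had 17 and 15, with 11 shared, and their signals ran up to 6.20 and 3.50. Of all distal peaks, 72.5% in replicate 1 and 58.2% in replicate 2 overlapped a peak of the other library. At Unc5b, 8 of the 23 peaks of replicate 2 overlapped another peak of the same list.
Ephb1 and Sema7a differed more in number between libraries. Ephb1 had 11 and 19 distal peaks but only 3 shared, and all were weak, with signals from 0.114 to 0.778 in replicate 1 and from 0.177 to 0.771 in replicate 2. Sema7a had 22 and 10, of which 11 and 9 were shared. Its strongest shared one lay 4.24 kb upstream with 5.80 and 3.24, above the 4.10 and 2.29 of the start peak. Plxnc1, the receptor of Sema7a, had 10 and 11, with 9 and 8 shared and none above 1.79.

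**Figure D5:**
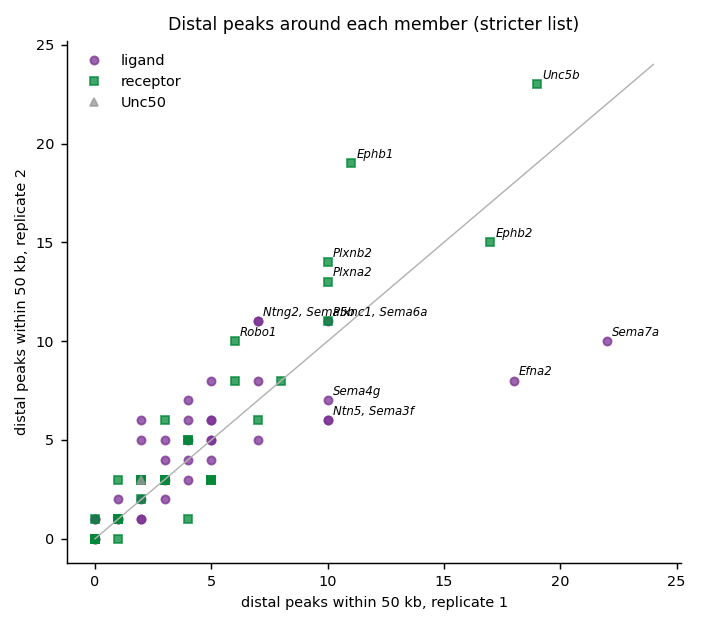
Number of distal peaks within 50 kb of a start in replicate 1 (x axis) and replicate 2 (y axis), 1 point per member, with ligands as circles, receptors as squares and Unc50 as a triangle. The grey line marks equal numbers, and members with 10 or more in a library are named. Unc5b (19 and 23) and Ephb2 (17 and 15) lie near the line, and Sema7a (22 and 10) and Efna2 (18 and 8) lie well below it.

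Many members had a distal peak within 50 kb of a start that was stronger than their start peak. The genes below are examples, and others, such as Ephb2, Robo1 and Unc5a, had one in both libraries too. How many coding genes have one was not counted. Ntng2, with a start peak of 0.421 in replicate 1 alone, held an intronic peak of 10.5 in replicate 1 and 9.77 in replicate 2, stronger than 99.7% and 99.9% of all distal peaks of their libraries. It lies 34.9 kb from the 5′ start and is the Ntng2 interval shown among the sequences. Ntng1, the other netrin-G gene, held one of 6.60 and 7.54 in its span, 286 kb from the 5′ start and 25.2 kb from the nearest start. At both netrin-G genes the distal peak was far stronger than the start peak, in every library that had one.
Slit3, with a start peak of 1.06 and 0.620, held one of 5.71 and 4.49 in its span, 466 kb from the 5′ start. Sema6d held one of 5.63 and 5.50, 551 kb from the 5′ start and 12.3 kb from the nearest one. Plxna2 had its strongest one 39.7 kb upstream of the gene with 5.97 and 6.14, similar in the 2 libraries. For these 3 genes the distal peak was stronger than the start peak in both libraries.

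For ligands in gene-dense regions the nearest start often belonged to another gene. Efna2, closed at its start, had 18 distal peaks in replicate 1 and 8 in replicate 2, of which 6 in each were shared, and the strongest, of 11.7 and 9.89, lay nearest to Cirbp. A peak of 11.2 and 6.78 lay 3.58 kb upstream of Sema3b and nearest to Gnai2. Efna1, Efna3 and Efna4 are neighbours on chromosome 3 and had the same peak, of 3.22 and 1.92, as their strongest shared one. Such peaks count for more than 1 member, and which gene they act on was not tested.

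Plxnb2 had 10 distal peaks in replicate 1 and 14 in replicate 2, Plxna2 10 and 13, and Sema6a 10 and 11. All 3 had more in replicate 2, the library with more peaks. In the netrin family Ntng2 had 7 and 11 distal peaks, with 5 shared, and Ntn5 had 10 and 6. Sema3f had 10 and 6 and Sema4g 10 and 7. Robo1 had 6 and 10, with 6 shared, and Epha8 had 7 and 6, all but 1 of replicate 1 shared. Efnb3, closed at its start, had 5 and 6. The other family leaders had fewer, with 4 and 6 at Slit3, 5 and 5 at Slit1, 5 and 6 at Efna1, 2 and 2 at Efnb1, 4 and 5 at Epha1, 3 and 6 at Unc5c, 5 and 3 at both Robo3 and Robo4, 3 and 3 at Nrp1 and 2 and 2 at Nrp2. Dcc, Ephb6, Plxna3, Sema3c, Slit2 and Unc5d had no distal peak in either library. Plxna3 and Unc5d thus had a start peak and no distal peak, whereas Dcc, Ephb6, Sema3c and Slit2 had neither.

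The share open differed less between CpG-rich and CpG-poor starts in members than in coding genes at large. CpG-rich starts were those with an observed over expected CpG ratio of at least 0.6 within 500 bp of the 5′ start. Of 49 members with a CpG-rich start 38 were open in both libraries (77.6%), against 88.1% of 10083 such coding genes. Of 24 with a CpG-poor start 14 were open (58.3%), against 28.4% of 11855. Here a gene was open through any of its starts, while CpG was read at the 5′ one. Counting peaks at the 5′ start alone, 75.5% of CpG-rich and 37.5% of CpG-poor members were open, against 86.8% and 21.3% of coding genes. The CpG-poor groups were not alike, with a median ratio of 0.471 in members and 0.236 in coding genes. For CpG-rich starts the medians were 0.761 and 0.782. The part of this in the shares was not tested. Of the 15 closed members 8 had a CpG-rich start, against 38 of the 52 open in both. The median ratio was 0.602 in closed members and 0.7 in members open in both.
Through any start, 69.2% of 26 ligands and 86.4% of 22 receptors were open among CpG-rich genes. Among CpG-poor genes these shares were 72.7% of 11 ligands and 46.2% of 13 receptors. At the 5′ start alone they were 65.4% and 86.4% for CpG-rich ligands and receptors, and 45.5% and 30.8% for CpG-poor ones. The numbers are small, and no test was made over genes.

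Promoter letters were read in RefSeq windows from 250 bases before to 50 after a start, 79 windows of 63 members and 20150 windows of all coding genes. SP/KLF letters, GGGCGG on either strand, stood in 70.9% of the members' windows and in 47.8% of those of coding genes. With CpG-rich genes alone the shares were 78.2% of 55 windows of members and 68.2% of 9739 of coding genes. ETS letters, CCGGAAG on either strand, were rarer in members, at 3.8% against 11.9%, and among CpG-rich genes at 5.45% against 18.7%. NRF1 letters, GCATGCG, stood in 0 of 79 windows of members and in 4.57% of those of coding genes. CTCF core letters, AGGGGGC, stood in 24.1% of windows of members and 13.3% of those of coding genes, and TATAAA in 2.53% and 12.1%. Among CpG-rich genes TATAAA stood in 3.64% of windows of members and 6.19% of those of coding genes, and AGGGGGC in 25.5% and 18.1%. CAGATG stood in 7.59% of all windows of members and 14.3% of those of coding genes, and TTGGCA in 6.33% and 13.1%. For CpG-rich genes the shares were 5.45% and 9.87% for CAGATG and 7.27% and 9.99% for TTGGCA. These shares describe letters only and show no binding.

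The 37 ligand and 35 receptor genes were open in both libraries less often, at 70.8% of 72, than the genes that act beside and downstream of them. Of 62 downstream and co-acting genes fixed as a list, 56 had a start peak in both libraries (90.3%), against 55.9% of coding genes, 2 in replicate 1 alone (Vav3 and Dscam) and 4 in neither (Mical1, Dock1, Draxin and Flrt1). Nck1, an adaptor between receptors and actin, had the highest mean of the list, with 13.9 in replicate 1 and 9.61 in replicate 2. Dpysl2, which carries semaphorin signals to microtubules, had 12.9 and 9.81, and Srgap2, a partner of Robo receptors, had 11 and 11.9. Rhoa, the small GTPase that triggers growth cone collapse, had 11.1 and 11.7, and Rgmb, a ligand of neogenin, 13.2 and 8.91. All 5 stood above every member except Unc5b in both libraries. The 73 members, Unc50 included, had 4.71 distal peaks per gene in replicate 1 and 4.97 in replicate 2, against 6.58 and 7.84 in the downstream list.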

How the data were processed

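DNase-seq was measured in 2 libraries of mouse cerebellum, biological replicates 1 and 2 per the labels, which form a single group. Deposited for each were 2 lists of peaks, the false discovery rate (FDR) of the cut rate along the genome and a list of footprints. Peaks carry the authors' signal, a coverage value of unstated scale. In both libraries 100% of low signal values lay within 0.05 of a whole multiple of 1 step, 0.00714 in replicate 1 and 0.00632 in replicate 2. Read as counts of cuts, the members' strongest start peaks held 53 to 1971 steps in replicate 1 and 37 to 2068 in replicate 2, a counting error of 2.25% to 13.7% and 2.20% to 16.4%, covering counting error only. The deposited FDR, a p-value corrected for many tests, told the lists apart: every peak of the stricter list held a base with FDR under 0.001, against 64.1% and 63.9% of the longer list. The deposited footprints carry the same p-value threshold, 0.01, throughout. Each list was made from 1 library. The sources used here do not give aligner, peak caller or read number. The assembly was mm10 per the labels.

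Members were found by symbol in GENCODE M21, on chromosomes 1 to 19, X and Y. A peak counted at a start with an overlap of 1 bp or more with the 1 kb either side, and distal peaks were centred within 50 kb of a start of the gene and over 1 kb from every start. Shared peaks overlap by 1 bp or more. With 1 group there was no contrast and no test was run: counts and medians are given beside all coding genes. Values are given for the 3 strongest start peaks and up to 2 members with most distal peaks in each family, for members open in 1 library and, of the downstream list, for the 5 strongest. Other values given were chosen after they were seen. The members and lists were chosen with earlier results of these data known. Promoter windows come from RefSeq (GRCm38.p6), matched by symbol for 63 of 73 members. The counting steps were tested on simulated intervals. Python 3.11.15, pandas 2.3.3, numpy 2.4.6 and bedtools 2.31.1 were used.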

Additional observations from a re-analysis of the deposited data

How the results depend on the processing

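Of the settings run, none but 1 moved a count of open genes by over 1.5 times: with only peaks above the median signal of their list, receptors open in both libraries fell to 15 of 35, and members stood at 47.9% against 49.7% of coding genes, under rather than over. Leaving out a replicate in turn gave 55 to 55 members, 27 to 27 ligands and 27 to 27 receptors, against 52, 26 and 25 in both, and 4.71 to 4.97 distal peaks per member. That mean, 4.84 in the main setting, became 8.04 with the longer list, 2.22 with peaks above the median, 4.03 with starts of coding transcripts, 3.66 with 1 start per gene, 3.26 within 25 kb, 7.53 within 100 kb, 9.73 with promoter peaks included, 3.23 for peaks shared at 1 bp and 2.64 at a reciprocal overlap of 50%. Each of these changes what is counted, and in each the members' mean was 1.33 to 1.83 times that of all coding genes. Settings added after the data were seen, which left out Unc50, counted it as a receptor (26 of 36) or merged overlapping peaks (4.73 per member), gave close values.

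No paired analysis was possible because the 2 replicates form 1 group. With 2 pooled libraries, a difference between members cannot be set against animals, and the weakest start peaks rest on few cuts. Peaks within 50 kb are assigned by distance alone, and neighbouring members share some of them.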

Other observations

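Of the 6 members with a start peak in 1 library, only Ntng2 also differed between libraries in the longer list. At the start of its noncoding transcripts replicate 1 held 7 weak peaks of at most 0.421 in the stricter list. In the longer list replicate 1 held 9 start peaks at Ntng2, the strongest of 1.20. Replicate 2 held none in either list.

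Draxin, a secreted netrin antagonist with no start peak in either library, had 20 distal peaks in replicate 1 and 21 in replicate 2, close to the 19 and 23 of Unc5b.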
